A study of Homo sapiens with 6 samples.

Results

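The ZIC factors measured here are ZIC1, ZIC2, ZIC4 and ZIC5, zinc finger transcription factors of the early nervous system. They were taken as every probe that the array's annotation assigns to these 4 symbols. Each symbol had 1 probe, so the 4 members are 4 of 18665 genes, and 4 of 48803 probes, on the array (ILMN_1774005 for ZIC1, ILMN_1696339 for ZIC2, ILMN_2120624 for ZIC4 and ILMN_1783881 for ZIC5). Other members of the family were not analysed here. ZIC proteins bind DNA through a set of zinc fingers related to those of the GLI factors, the effectors of Hedgehog signaling, and in vertebrate embryos they act in the neural plate, the neural crest and the dorsal neural tube. ZIC1 and ZIC4 lie side by side on chromosome 3, and deletion of both is linked to Dandy-Walker malformation of the cerebellum. ZIC2 and ZIC5 lie side by side on chromosome 13, and loss of ZIC2 causes holoprosencephaly, in which the forebrain fails to divide. In the mouse, Zic2 is also expressed in the pluripotent cells of the epiblast and in ESC.

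The study profiled mRNA of human embryonic stem cells (ESC) and of the neural stem cells (NSC) derived from them, on Illumina Human-6 bead arrays. There were 3 NSC and 3 ESC arrays, 1 per stage from each of the established lines H1, HSF1 and HSF6, all without genetic modification. H1 cells were grown without feeders at one site and HSF1 and HSF6 (together called HSF) at another, where they were also differentiated, so line, site of culture and way of differentiation cannot be told apart, and the H1 stock carried duplicated genome segments on chromosomes other than those of the ZIC genes. The methods describe adherent neural induction with N2 and B27 supplements and then bFGF for the site that grew H1, and refer to earlier work for the HSF lines. Each array is a bulk culture, so fewer cells of a type and less RNA per cell cannot be told apart, and each line gave 1 array per stage, so p-values across stages measure the spread between lines.

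Signals are normalized fluorescence intensities on a linear scale, brought to a common distribution before deposit, with a median of 137 on each array. Background, centred at 127 with an SD of 11.2, had not been subtracted. The background limit was set at a signal of 145. For tests, background was removed, 16 was added and log2 was taken; differences and SDs below are on that log2 scale, whereas signals are as deposited. Calls needed an adjusted p under 0.05 (limma, Benjamini-Hochberg over all probes tested) and at least a 1.5-fold difference. Signals of different probes are not comparable in level, and each gene is compared only with itself. The exception is the marker sums, in which bright probes weigh most.

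The ZIC genes sit in 2 divergent pairs, and their start regions are shown because both members of a pair are read outward from a shared stretch of DNA. The start sites of ZIC4 and ZIC1 are 2822 bases apart and those of ZIC5 and ZIC2 are 9875 bases apart. The sequences are from RefSeq (GRCh38.p14), which matched all 4 symbols, and run 5′ to 3′ on each gene's own strand from 250 bases before to 50 bases after the start site, with CpG dinucleotides in capitals. They are chr3:147409115-147409414 on the plus strand for ZIC1, chr3:147406494-147406793 on the minus strand for ZIC4, chr13:99981534-99981833 on the plus strand for ZIC2 and chr13:99971860-99972159 on the minus strand for ZIC5. ZIC4 has 4 annotated start windows and ZIC5 has 3, of which the one farthest upstream is given.
ZIC1: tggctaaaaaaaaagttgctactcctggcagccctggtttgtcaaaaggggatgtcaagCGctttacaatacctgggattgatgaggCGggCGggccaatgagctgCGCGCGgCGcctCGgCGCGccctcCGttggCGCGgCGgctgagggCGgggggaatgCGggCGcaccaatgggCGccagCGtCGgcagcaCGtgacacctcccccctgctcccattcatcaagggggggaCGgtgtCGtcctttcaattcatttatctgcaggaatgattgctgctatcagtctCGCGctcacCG
ZIC4: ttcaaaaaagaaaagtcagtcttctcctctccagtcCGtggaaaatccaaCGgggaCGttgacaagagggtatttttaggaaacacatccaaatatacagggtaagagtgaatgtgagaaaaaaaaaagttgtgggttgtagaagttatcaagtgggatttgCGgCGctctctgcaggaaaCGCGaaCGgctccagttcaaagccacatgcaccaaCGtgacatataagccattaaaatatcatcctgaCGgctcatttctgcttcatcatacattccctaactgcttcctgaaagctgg
ZIC2: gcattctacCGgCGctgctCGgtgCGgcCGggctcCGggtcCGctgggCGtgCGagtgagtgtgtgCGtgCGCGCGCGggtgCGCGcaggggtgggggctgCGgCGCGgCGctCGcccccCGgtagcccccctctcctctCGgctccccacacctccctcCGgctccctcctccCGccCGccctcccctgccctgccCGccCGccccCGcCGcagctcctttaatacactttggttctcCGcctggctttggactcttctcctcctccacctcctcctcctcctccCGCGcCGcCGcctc
ZIC5: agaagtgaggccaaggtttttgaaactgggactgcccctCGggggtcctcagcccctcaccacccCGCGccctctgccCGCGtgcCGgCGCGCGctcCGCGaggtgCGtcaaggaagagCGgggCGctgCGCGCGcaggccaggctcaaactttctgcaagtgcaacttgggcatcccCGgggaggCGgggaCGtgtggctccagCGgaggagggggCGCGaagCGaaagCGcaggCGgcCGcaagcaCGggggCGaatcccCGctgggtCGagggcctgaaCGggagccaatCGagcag

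CpG dinucleotides, the sites of DNA methylation in mammals, were dense in 3 of these 4 windows. ZIC2 held 35 CpG with 75.0% GC, ZIC5 held 33 with 70.3% GC and ZIC1 held 26 with 61.3% GC, whereas ZIC4 held 10 with 43.3% GC. The median over 35116 start windows of the same length was 14 CpG. At least as many CpG as in ZIC2 were found in 14.1% of all windows, as in ZIC5 in 17.2%, as in ZIC1 in 30.1% and as in ZIC4 in 56.4%. The windows of the neighbours ZIC1 and ZIC4 thus differed in base composition. Both strands were searched for short motifs. The GC box GGGCGG occurred 4 times in ZIC2, overlapping matches included, and 2 times in ZIC1, and 45% of all windows held it at least 1 time. CCAAT occurred 2 times in ZIC1 and 1 time in ZIC5. Of all windows, 34.6% held it at least 1 time and 10.75% at least 2 times. TATAAA (11.5% of all windows), the ZIC core CCTGCTG (10.5%), the GLI site TGGGTGGTC (0.2%) and the POU octamer ATGCAAAT (1.8%) had no match in any of the 4 windows. These are letter matches only, and nothing on these arrays reports binding or methylation there.

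ZIC2 was the only one of the 4 genes above background on all 6 arrays, and it stood apart by its low signal in one culture. Its signals were 340, 11391 and 4952 in NSC of H1, HSF1 and HSF6, against 1955, 3177 and 5408 in ESC of the same lines. The H1 NSC array was the lowest of the 6 and the HSF1 NSC array the highest, so the range in NSC enclosed all 3 ESC values. ZIC2 had mean log2 values of 11.18 ± 2.96 in NSC and 11.60 ± 0.76 in ESC (SD, n = 3 each). The difference, NSC minus ESC, was -0.42 (SE 1.31, 95% confidence interval -3.49 to 2.65, adjusted p = 0.836, limma), an interval that admits large changes in either direction. Line by line, NSC minus ESC was -3.01 (H1), 1.88 (HSF1) and -0.13 (HSF6). Without the H1 NSC array the mean difference turned positive, at 1.25 (adjusted p = 0.133), and without both H1 arrays it was 0.87 (adjusted p = 0.233).

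ZIC4 was above background in all 3 NSC cultures and in no ESC culture. Signals were 239.9, 1024 and 1631 in NSC of H1, HSF1 and HSF6, against 139, 131 and 129.6 in ESC. HSF6 NSC was the highest and H1 NSC the lowest of the NSC arrays. Mean log2 values were 9.14 ± 1.88 in NSC and 4.79 ± 0.14 in ESC (SD, n = 3 each). ZIC4 rose in NSC, by 4.35 (SE 0.83, adjusted p = 0.0131, limma), and since ESC lay at background this is best read as at least 16-fold higher in NSC, the NSC mean set against the background limit. ZIC4 and ZIC2 were the members that passed the filter of this comparison, above background on all arrays of a stage, and 1 of the 2 was called, beside 3860 of 17402 probes, or 22.2%. ZIC4 also needed its NSC level to pass the filter. The call was lost without the HSF1 ESC array (4.32, adjusted p = 0.0513), without both HSF1 arrays (3.97, adjusted p = 0.127) and without both HSF6 arrays (3.58, adjusted p = 0.105). It was also lost without background correction, without a filter and in the test that the methods name (adjusted p = 0.0855).

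ZIC1 was seen in NSC of the HSF lines alone. The signals were 129.6, 333 and 244 in NSC of H1, HSF1 and HSF6, against 111, 119.8 and 117.7 in ESC. Only the HSF1 and HSF6 NSC arrays exceeded the background limit, and the H1 NSC value lay below it but above all 3 ESC values. Mean log2 values were 6.51 ± 1.62 in NSC and 4.45 ± 0.06 in ESC (SD, n = 3 each). With 1 NSC array below the limit, ZIC1 did not enter the test of NSC against ESC. A fit without a filter gave a difference of 2.06 (adjusted p = 0.245, limma).

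ZIC5 stayed close to background throughout. Signals of 124, 136 and 141 were measured in NSC of H1, HSF1 and HSF6, against 157, 143 and 135 in ESC. Only the H1 ESC array exceeded the limit, so ZIC5 entered none of the tests. Mean log2 values were 4.81 ± 0.22 in NSC and 5.14 ± 0.35 in ESC (SD, n = 3 each). A change of ZIC5 was therefore not detectable with this probe.

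**Figure D1:**
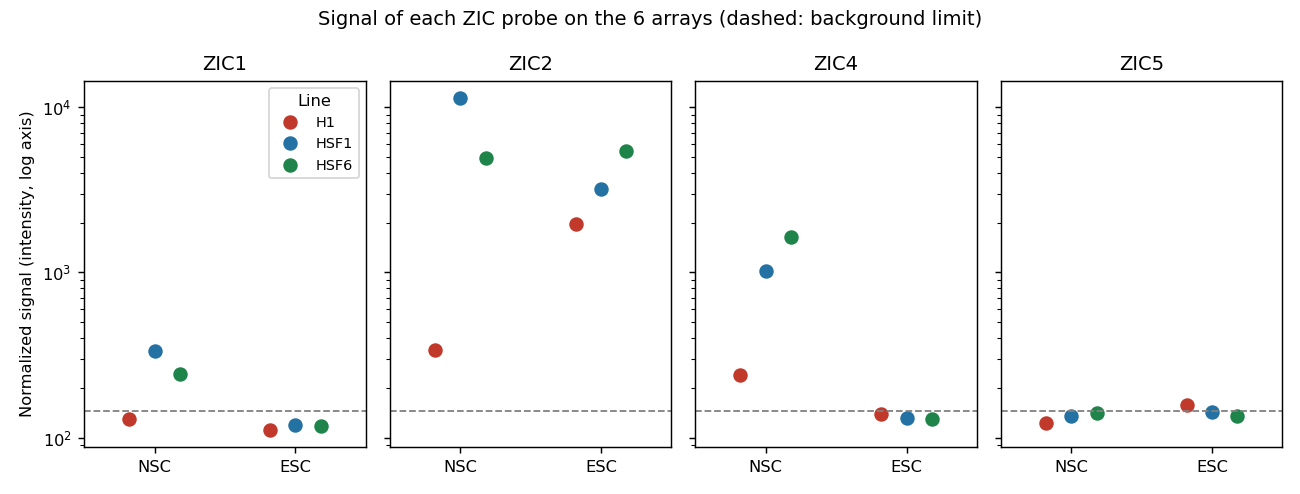
Normalized signals of the 4 ZIC probes (log axis) on the 3 NSC and the 3 ESC arrays, 1 point per array and 1 color per line, with the background limit of 145 as a dashed line. ZIC2 lies above the limit on all 6 arrays with H1 NSC lowest at 340, ZIC4 only on the 3 NSC arrays, ZIC1 only on HSF1 NSC and HSF6 NSC, and ZIC5 only on H1 ESC at 157.

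In NSC, the 3 ZIC genes that could be tested were lower in H1 than in HSF. ZIC1, ZIC2 and ZIC4 passed the filter of this comparison, above background on at least 2 of the 6 arrays, and all 3 were called lower in H1 NSC, beside 893 of 22442 probes called either way (3.98%) and 507 called lower (2.26%). ZIC1 passed the filter only through the HSF NSC arrays, where it is high, and ZIC4 could not pass without at least 1 of them. Their place among the genes called is therefore no support. Without a filter the calls of ZIC1 (adjusted p = 0.0593, limma) and ZIC2 (adjusted p = 0.0592) were lost, and that of ZIC4 was kept (adjusted p = 0.0458). ZIC2 was at 7.84 in H1 NSC and at 12.85 ± 0.86 in HSF NSC (log2, SD, n = 2). The difference was -5.01 (SE 0.60, 95% confidence interval -6.49 to -3.54, adjusted p = 0.0147, limma), which is 32.3-fold on the background-corrected scale. Among 15269 probes above background in both H1 NSC and HSF NSC, ZIC2 had the rank of 11 from the most reduced in H1. ZIC4 was at 7.01 in H1 NSC and at 10.20 ± 0.52 in HSF NSC, a difference of -3.20 (SE 0.39, adjusted p = 0.0159) or 9.17-fold, and its rank was 112. ZIC1 was at 4.69, below the limit, in H1 NSC and at 7.42 ± 0.52 in HSF NSC, a difference of -2.74 (SE 0.39, adjusted p = 0.0237), so that HSF NSC were at least 4.88-fold higher.

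With 1 H1 array per stage, the spread behind these tests is that between HSF1 and HSF6, and H1 was assumed to vary like them. The paper describes HSF1 and HSF6 as lines studied earlier because they diverge in differentiation to NSC. The HSF NSC arrays are therefore not replicates of 1 cell state. The calls were close to the threshold in several alternatives: without the HSF1 NSC array the adjusted p was 0.0507 for ZIC2 (-4.40) and 0.0501 for ZIC4 (-3.56), without the HSF6 NSC array it was 0.0610 for ZIC4 (-2.83), and ZIC1 was above background on too few arrays to be tested without either one. All 3 calls were lost when values under the limit were raised to it before the fit, with adjusted p of 0.105 for ZIC1, 0.0914 for ZIC2 and 0.0777 for ZIC4.

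**Figure D2:**
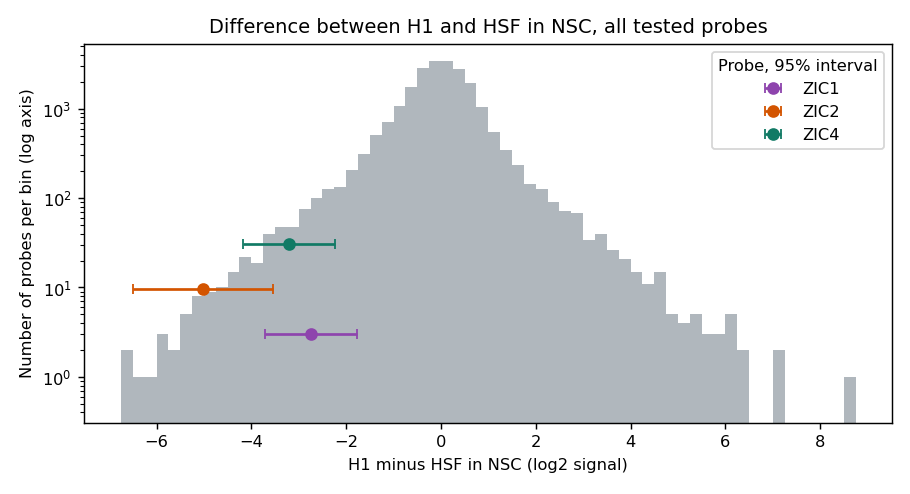
Distribution over all 22442 tested probes of H1 NSC minus HSF NSC (log2 difference on the x axis, number of probes per bin on a log y axis), with ZIC1, ZIC2 and ZIC4 marked as points with 95% confidence intervals at arbitrary heights. The 3 ZIC values of -2.74, -5.01 and -3.20 lie in the left tail, against a median of -0.02 over all probes.

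In ESC the same comparison called 8 of 22442 probes (0.0356%), and no ZIC gene was among them. ZIC2 was at 10.85 in H1 ESC and at 11.98 ± 0.56 in HSF ESC (SD, n = 2), a difference of -1.13 (95% confidence interval -2.60 to 0.35, adjusted p = 0.455, limma). This interval does not exclude that ZIC2 was lower in H1 ESC as well. ZIC4 and ZIC1 were below background in ESC of all 3 lines, with differences of 0.23 (adjusted p = 0.830) and -0.10 (adjusted p = 0.939).

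Whether the step to NSC differed between H1 and HSF was tested by the interaction, the NSC minus ESC difference in H1 less that in HSF. It was -3.43 for ZIC4 (SE 0.56, adjusted p = 0.0704), -3.89 for ZIC2 (SE 0.85, adjusted p = 0.126) and -2.64 for ZIC1 (SE 0.56, adjusted p = 0.119). All 3 were negative and none passed the threshold, beside 143 of 22442 probes that did (0.637%). The alternatives tried called none of them either, with adjusted p no lower than 0.0715. A line-specific response of the ZIC genes was therefore not established at this number of arrays.

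Within the HSF lines, NSC and ESC were compared between 2 arrays and 2 arrays in the fit of all 6. ZIC4 rose by 5.49 in HSF NSC (SE 0.32, adjusted p = 0.00122, limma), at least 33.5-fold, and ZIC1 rose by 2.94 (SE 0.32, adjusted p = 0.00534), at least 4.88-fold. Both calls held in every alternative that could be run, with adjusted p up to 0.0234 for ZIC4 and 0.0406 for ZIC1. Both genes passed the filter only through NSC arrays, where they are high, so their place among the genes called is no support. Without a filter the adjusted p was 0.00791 for ZIC4 and 0.0183 for ZIC1 (limma). ZIC1 could not be tested without the HSF1 NSC or the HSF6 NSC array. ZIC2 changed by 0.87 (SE 0.49, 95% confidence interval -0.33 to 2.08, adjusted p = 0.261) and was not called. The 2 genes called lie on chromosome 3 as a pair, beside 4103 of 22442 probes called in this comparison (18.3%), with 9.59% of the probes tested called higher in NSC.

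Within H1, a comparison added after the data were seen, 1 NSC array was set against 1 ESC array with the spread taken from HSF. Neither side has a replicate, so the values describe these cultures. NSC minus ESC in H1 was -3.01 for ZIC2 (SE 0.69, adjusted p = 0.0461, limma), with H1 NSC 8.06-fold below H1 ESC, and 2.06 for ZIC4 (SE 0.45, adjusted p = 0.0419), with H1 NSC at least 3.65-fold higher. For ZIC1 it was 0.30 (adjusted p = 0.719), with both arrays below the limit. The background of this comparison was 2698 of 22442 probes past the threshold (12%). ZIC2 no longer passed in 4 of 8 alternatives and ZIC4 in 6 of 8. Both were lost without background correction, with an offset of 50, without a filter and with low values raised to the limit, and ZIC4 also without the HSF1 NSC array (adjusted p = 0.0588) or the HSF6 NSC array (adjusted p = 0.0591).

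**Figure D3:**
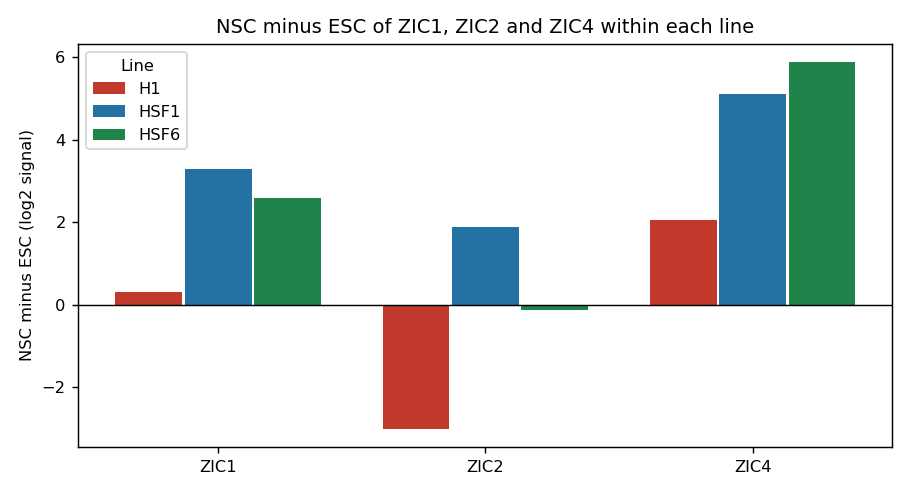
NSC minus ESC (log2 difference) of ZIC1, ZIC2 and ZIC4 within H1, HSF1 and HSF6, 1 bar per line from 1 NSC and 1 ESC array and so without an error bar. ZIC4 is positive in all 3 lines (2.06, 5.10 and 5.88), ZIC1 is near 0 in H1 (0.30) and positive in HSF1 and HSF6 (3.29 and 2.59), and ZIC2 is at -3.01 (H1), 1.88 (HSF1) and -0.13 (HSF6).

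Between HSF1 and HSF6, the lines of 1 site, the ZIC genes had no common direction. In NSC, ZIC2 was 2.33-fold and ZIC1 1.67-fold higher in HSF1 than in HSF6, whereas ZIC4 was 1.66-fold higher in HSF6, each from 1 array per line and without a test. Over both stages, HSF1 minus HSF6 was 0.38 for ZIC1, 0.22 for ZIC2 and -0.35 for ZIC4, with 95% confidence intervals of -1.42 to 2.19, -2.49 to 2.92 and -2.60 to 1.91. No ZIC gene was called, as was no probe of the 22442 (0%, limma; 727 at an unadjusted p under 0.05). H1 minus HSF over both stages likewise called no probe (0%; 2831 at an unadjusted p under 0.05), with -3.07 for ZIC2 (adjusted p = 0.312), -1.48 for ZIC4 (adjusted p = 0.475) and -1.42 for ZIC1 (adjusted p = 0.419).

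The order of the 6 cultures differed between the 3 measurable genes. ZIC2 ran, from high to low, HSF1 NSC, HSF6 ESC, HSF6 NSC, HSF1 ESC, H1 ESC and H1 NSC, so that the stages were mixed and both H1 cultures were at the bottom. ZIC4 ran HSF6 NSC, HSF1 NSC and H1 NSC, with the 3 ESC cultures below the limit and without an order among them, and ZIC1 ran HSF1 NSC and HSF6 NSC, with the other 4 cultures below the limit. Over the 6 arrays the log2 values of ZIC1 and ZIC4 correlated at r = 0.93, those of ZIC1 and ZIC2 at 0.56 and those of ZIC2 and ZIC4 at 0.28. These describe 6 arrays that share lines and stages. The value for ZIC1 and ZIC4 rests largely on arrays at background against NSC arrays above it. In HSF1 and HSF6 NSC, the cultures where both exceeded the limit, their order was opposite.

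The genes whose profile was most like that of each ZIC gene were taken as the 5 with the highest correlation over the 6 arrays among 12855 genes. For ZIC1 these were TBC1D3B, ZFP14, FGF9, RAB36 and PAX6, all with r = 0.998. PAX6, a transcription factor of neural progenitors, had signals of 138, 591 and 413 in H1, HSF1 and HSF6 NSC, against 111 to 119 in ESC, and FGF9, a fibroblast growth factor, had 141, 469 and 325 in NSC, against 111 to 126 in ESC. Both were thus, like ZIC1, above background in HSF NSC alone. TBC1D3B belongs to a family of near-identical copies, so its signal may not be its own.

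For ZIC2 the most similar genes were AXIN2 (r = 0.995), a feedback inhibitor of WNT signaling, STAU2 (0.995), an RNA-binding protein, RIC3 (0.995), a chaperone of acetylcholine receptors, KIAA1191 (0.993) and LUC7L3 (0.99), a splicing factor. AXIN2 had signals of 849, 2630 and 2078 in H1, HSF1 and HSF6 NSC, against 1689, 1815 and 2087 in ESC. Like ZIC2 it was lowest in H1 NSC and highest in HSF1 NSC. For ZIC4 they were SLC8A1 (0.999), a sodium-calcium exchanger, SCN2A (0.999), a neuronal sodium channel, NPAS3 (0.999), a transcription factor of the nervous system, DCLK2 (0.998), a kinase related to doublecortin, and TAPT1 (0.998). NPAS3 had signals of 186, 513 and 742 in H1, HSF1 and HSF6 NSC, against 134, 118 and 129 in ESC, the same order in NSC as ZIC4. With 12855 genes and 6 arrays that share lines and stages, these names are a description. The genes named for ZIC1, ZIC2 and ZIC4 were picked by this likeness, so a shared order of arrays follows from the choice.

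**Figure D4:**
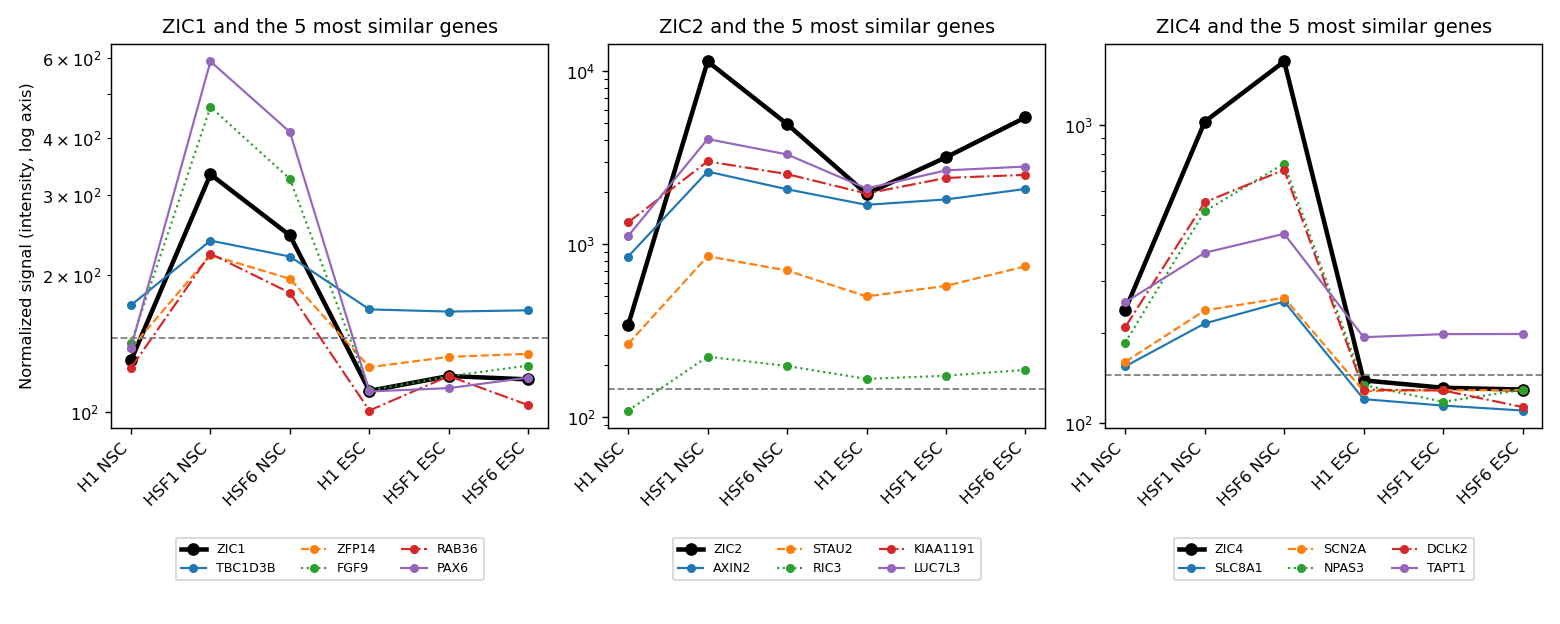
Normalized signal (log axis) on the 6 arrays of ZIC1, ZIC2 and ZIC4 (thick black lines), each with the 5 genes of most similar profile, and the background limit as a dashed line. Lines join arrays only to show each profile's shape, and levels of different genes are not comparable. The ZIC1 panel peaks at HSF1 NSC (333), the ZIC2 panel dips at H1 NSC (340) and the ZIC4 panel peaks at HSF6 NSC (1631).

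Of the 12 nearest protein-coding genes with a probe, 3 on each side of each pair, 7 were tested between lines and 1 was called in NSC, beside 3.98% of all probes. This was AGTR1, a receptor of angiotensin II and the nearest gene past ZIC1, with signals of 1180, 168 and 159 in H1, HSF1 and HSF6 NSC, against 138, 118 and 126 in ESC. It was higher in H1 NSC, by 4.37 (adjusted p = 0.00586, limma), opposite to ZIC1 and ZIC4. Of 6 neighbours tested between the stages, 1 was called, beside 22.2% of all probes. This was PLSCR1, a phospholipid scramblase before ZIC4, which fell by 1.88 in NSC (adjusted p = 0.00442). Past ZIC2, PCCA, a subunit of a mitochondrial carboxylase and the nearest neighbour, differed by -0.24 between the stages (adjusted p = 0.726). TMTC4, the next gene and an endoplasmic reticulum protein, had signals of 601, 1078 and 1348 in H1, HSF1 and HSF6 NSC, against 258, 531 and 516 in ESC, a difference of 1.52 that was not called (adjusted p = 0.0725).

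Genes of the territories and pathways in which ZIC factors act were counted from lists. These counts, here and in the next paragraph, stand beside 22.2% of all probes called between the stages and 3.98% between lines in NSC. With so few genes per list, nothing particular to a list is read from them. Among neural plate border and neural crest genes, 9 were tested between the stages, 3 rose in NSC and none fell, and the median difference was 0.24, against -0.09 over all probes tested. NR2F1, a nuclear receptor, had signals of 1874, 2574 and 2521 in H1, HSF1 and HSF6 NSC, against 124 to 133 in ESC (adjusted p = 4.41e-05, limma), TFAP2A, an early factor of the neural plate border, rose by 2.91 (adjusted p = 0.0225), and DLX5, a homeobox factor, by 1.78 (adjusted p = 0.0182). Between H1 NSC and HSF NSC these 3 were not called, and 1 of 13 genes of the list was, ETS1, a transcription factor that was higher in H1 NSC, by 3.51 (adjusted p = 0.0483). Among roof plate and dorsal neural tube genes, 4 were tested and 1 rose, RGMA, a guidance molecule, with signals of 2270, 2593 and 3394 in H1, HSF1 and HSF6 NSC, against 528, 801 and 1478 in ESC (adjusted p = 0.0270). Of ventral neural tube genes, 3 were tested and 1 fell in NSC. This was FOXA2, a floor plate and endoderm factor, with a difference of -3.22 (adjusted p = 0.00661) and all NSC values below the limit.

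ZIC2 is one of the genes mutated in holoprosencephaly, and of the other such genes 12 were tested between the stages. BOC and GAS1, Hedgehog co-receptors, rose in NSC and NODAL, a TGF-beta family ligand, fell, with a median of 0.40 over the 12. GAS1 had signals of 4021, 3604 and 3222 in H1, HSF1 and HSF6 NSC, against 208, 351 and 254 in ESC (adjusted p = 0.000680, limma). NODAL had 142, 154 and 166 in NSC, against 2581, 1501 and 1642 in ESC (adjusted p = 0.000322). Between lines in NSC, 15 of these genes were tested and 1 was called, DLL1, a ligand of Notch, which like ZIC2 was lower in H1 NSC (211) than in HSF1 and HSF6 NSC (2448 and 1534), a difference of -4.19 (adjusted p = 0.0152). Of the GLI and GLIS genes, relatives of the ZIC factors, 4 were tested and 1 was called in each comparison. It was GLIS3 both times, with signals of 240.0, 707 and 796 in H1, HSF1 and HSF6 NSC, against 115, 109 and 111 in ESC (adjusted p = 0.00581 between stages and 0.0179 between lines, limma). Its order in NSC, from HSF6 over HSF1 to H1, was that of ZIC4, and its ESC values lay below the limit. Of forebrain genes 2 were tested between the stages and 1 rose, DLX1, and of midbrain and cerebellum genes 3 were tested and 1 rose, MEIS1, both homeobox factors. The other forebrain gene tested, OTX2, was not called, with signals of 164, 6236 and 165 in H1, HSF1 and HSF6 NSC. LHX2, not tested between the stages, had 442, 3156 and 136 there. Both thus differed between the HSF NSC cultures, whereas DLX1 was similar in HSF1 and HSF6 NSC (505 and 603).

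Markers of other cell types moved with the difference between H1 NSC and HSF NSC, and their part in the ZIC result was not tested. Of 12 neural stem cell markers tested, 8 were lower in H1 NSC and none higher (median -2.94, against a median of -0.02 and 2.26% called lower, 3.98% either way, over all probes), and of 11 neuron markers 7 were lower and none higher (median -2.48). Of 13 markers of fibroblasts and mesenchyme, 2 were higher in H1 NSC and none lower (median 2.21), and of 8 markers of the meninges, the connective tissue around the brain, 4 were higher and none lower (median 1.85). The summed background-corrected signal of the neural stem cell markers was 37961 in H1 NSC, against 61504 and 60579 in HSF1 and HSF6 NSC and 15436 to 25933 in ESC. Most of that sum was VIM, an intermediate filament protein that mesenchyme also makes, and without it the sum was 7005 in H1 NSC, against 28971 and 23635 in HSF1 and HSF6 NSC and 11192 to 12076 in ESC. In H1 NSC, 8 of 13 of these markers were above background, against 12 of 13 in each HSF NSC culture and 10 of 13 in each ESC culture. PAX6, HES5, SOX3 and MSI1 were below the limit in H1 NSC, and SOX1 on every array. The fibroblast and mesenchyme sum was 177046 in H1 NSC, against 42212 and 71943 in HSF1 and HSF6 NSC and 3385 to 6423 in ESC, and the meninges sum was 36736 in H1 NSC, against 2547 and 1900 in HSF1 and HSF6 NSC and 1760 to 3968 in ESC. ALDH1A2, a retinoic acid-synthesizing enzyme of the meninges, had a signal of 27722 in H1 NSC, against 195 and 168 in HSF1 and HSF6 NSC (adjusted p = 0.00585, limma). The H1 NSC culture thus carried its label with fewer neural stem cell markers above background than the HSF NSC cultures or the ESC cultures. ZIC4 was above background in H1 NSC, at 239.9, and its relation to these markers was not tested. The pluripotency sum was 1062 in H1 NSC and 6991 and 7517 in HSF1 and HSF6 NSC, against 43478 to 59767 in ESC. Most of the HSF NSC sums was SOX2, which neural stem cells also express, and without it the sums were 399 in H1 NSC and 896 and 1307 in HSF1 and HSF6 NSC, against 38202 to 55873 in ESC. POU5F1, the defining ESC factor, was below the limit in all 3 NSC cultures.

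**Figure D5:**
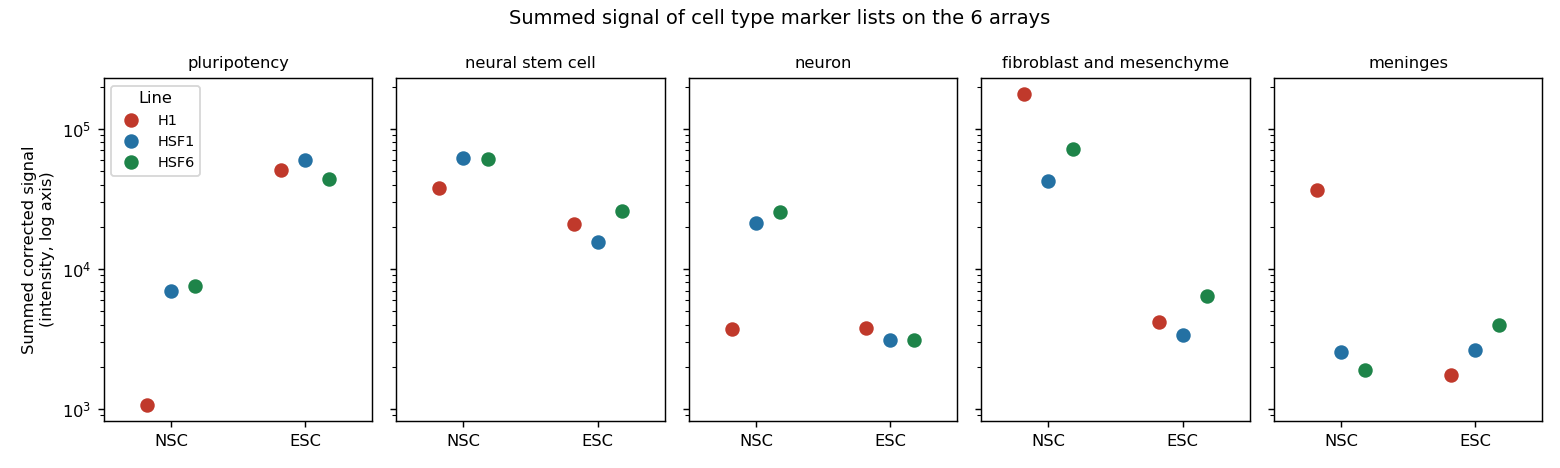
Summed background-corrected signal (log axis) of 5 marker lists on the 3 NSC and the 3 ESC arrays, 1 panel per list, 1 point per array and 1 color per line. In H1 NSC the neural stem cell sum of 37961 and the neuron sum of 3720 lie below those of HSF1 and HSF6 NSC, and the meninges sum of 36736 lies above them. Most of the H1 NSC meninges sum is ALDH1A2, and most of the neural stem cell sum is VIM.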

How the data were processed

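Values were taken from the deposited table of 48803 probes: linear intensities that the authors had summarised in BeadStudio (version not given in the sources used here) and normalized between arrays, after which ranked signals differ by at most 0.407 between the 6 arrays. An unnormalized table was left out, since its 24 per-array columns do not say which sample they hold. Probes were named through the platform annotation, in which 27578 probes carry 1 symbol, 13 several and 21212 none.

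R 4.3.3 was used, with the packages limma (3.58.1) and data.table (1.17.8). Background was removed with normexp, with its mean at the mode of signals under 300.0 and its SD from the spread below it, then an offset of 16 was added and log2 taken. The limit was the mean plus 1.64 SD. NSC and ESC were compared with lmFit and eBayes over the 17402 probes above the limit on all 3 arrays of a stage, and lines over the 22442 probes above it on at least 2 arrays, in 4 groups of line and stage. The scripts were tested on simulated data. Arrays carry no count depth, and their number limits the precision.

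ESC and NSC arrays of a line come from the same line and were checked for pairing: their deviations from the stage means had correlations of 0.17 (H1), 0.22 (HSF1) and 0.10 (HSF6). The members and gene lists were chosen with earlier results of these data known. Genes were named as members, the 5 most similar genes, the 3 neighbours on each side and up to 3 called members of a list with the largest NSC minus ESC difference. DLL1, OTX2, LHX2, ALDH1A2 and the other meninges markers named, the markers below background in H1 NSC and the motifs searched were chosen after the values were seen. The alternatives were no background correction, an offset of 50, no filter, the line as a block, the t-test of the methods, leaving out arrays or lines, and, added after the data were seen, raising low values to the limit and fitting NSC arrays alone.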

Additional observations from a re-analysis of the deposited data

How the results depend on the processing

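The number of arrays and, for ZIC1 and ZIC5, signals near background limit these results. ZIC4, NSC minus ESC, kept its direction in 15 of 15 alternatives and its call in 9. It was no longer called without background correction (2.47, adjusted p = 0.0534, limma), without a filter (4.35, 0.0550), in the methods' t-test (4.35, 0.0855), without the HSF1 ESC array (4.32, 0.0513), without both HSF1 arrays (3.97, 0.127) or without both HSF6 arrays (3.58, 0.105); leaving out 1 array gave 3.63 to 5.42. ZIC2 gave -1.56 to 1.25 on leaving out 1 array and 0.87 without both H1 arrays. H1 minus HSF in NSC stayed negative for the 3 genes. ZIC1 lost its call without background correction (-1.14, 0.0858), with an offset of 50 (-1.79, 0.0561), without a filter (-2.74, 0.0593) and with low values raised to the limit (-2.29, 0.105). ZIC2 lost it without a filter (-5.01, 0.0592), with raised values (-5.01, 0.0914) and without the HSF1 NSC array (-4.40). ZIC4 lost it with raised values (-3.20, 0.0777) and without the HSF1 NSC (-3.56) or the HSF6 NSC array (-2.83). Leaving out 1 array gave -5.62 to -4.40 for ZIC2 and -3.56 to -2.83 for ZIC4. Called probes between stages numbered 1500 in the t-test, 325 without both HSF1 and 530 without both HSF6 arrays, and 1531 to 4466 on leaving out 1 array, against 3860. Those of H1 minus HSF in NSC numbered 238 with raised values, 1558 from NSC arrays alone and 125 to 1645 on leaving out 1 array, against 893. The line as a replicate block left ZIC4 called (4.35, adjusted p = 0.0188) and ZIC2 not (-0.42, 0.747); the other comparisons were not run with it. On leaving out 1 array, HSF1 minus HSF6 changed sign, with ranges of -0.011 to 1.31 (ZIC1), -1.51 to 1.94 (ZIC2) and -1.50 to 0.80 (ZIC4), and H1 minus HSF over both stages turned to 0.23 for ZIC4 without H1 NSC. Without H1 ESC that comparison called all 3 genes (adjusted p 0.00320 to 0.00619), since it then rests on the NSC arrays of H1. The cause of the other changes was not tested.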
